A study of Mus musculus with 6 samples.

Results

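A set of 10 rapid response genes, Ier2, Ier3, Ier5, Btg1, Btg2, Zfp36, Klf2, Klf4, Klf6 and Klf10, was followed in the mouse cochlear nucleus after its auditory nerve had been silenced. All probe sets that the array annotation assigns to 1 of these 10 symbols and to no other gene were taken, which gave 17 of the 22690 probe sets on the array, with 1 to 3 for each gene. The samples were cochlear nuclei of mice at postnatal day 21, in which tetrodotoxin (TTX), a blocker of voltage-gated sodium channels, had been infused into 1 cochlea for 24 h from an osmotic pump. The nucleus on the infused side (ipsilateral, 3 arrays) was compared with the nucleus on the other side (contralateral, 3 arrays), and each array held RNA of a pool of tissue from 10 to 12 mice. The labels name the contralateral nucleus as the control. It came from animals that also carried a pump, no untreated mice are among the samples, and the labels give no strain or sex. A difference between the sides can therefore stem from either side.

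Rapid response genes are transcribed within minutes of a stimulus from transcription factors already present in the cell, without new protein synthesis. In neurons, calcium entry during firing activates the serum response factor (SRF), which binds the CArG box, and CREB, which binds the cyclic AMP response element, and both sit in the promoters of many such genes. The products fall into groups by role. Ier2, Ier3 and Ier5 encode small immediate early response proteins, of which IER3 acts on cell survival and IER5 on the heat shock factor HSF1. Btg1, Btg2 and Zfp36 act on messenger RNA turnover, since BTG1 and BTG2 bind the CCR4-NOT deadenylase and ZFP36 (tristetraprolin) brings it to mRNAs with AU-rich elements. Klf2, Klf4, Klf6 and Klf10 encode zinc finger transcription factors of the Krüppel-like family, and Klf2 and Klf4 are well known in vascular endothelium.

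The promoters of 4 genes are shown because the values below turn on these genes or because they hold a complete element of the stimulus pathways. Each is the stretch of 250 bases before the transcription start in RefSeq's table for GRCm38.p6, printed 5′ to 3′ on the strand of the gene. That of Zfp36 lies at chr7:28379229-28379478, minus strand, Btg2 at chr1:134079156-134079405, minus strand, Ier5 at chr1:155099637-155099886, minus strand and Klf6 at chr13:5861239-5861488, plus strand. Capitals mark a CArG box (in Zfp36) and a cyclic AMP response element, TGACGTCA (in Btg2).
Zfp36: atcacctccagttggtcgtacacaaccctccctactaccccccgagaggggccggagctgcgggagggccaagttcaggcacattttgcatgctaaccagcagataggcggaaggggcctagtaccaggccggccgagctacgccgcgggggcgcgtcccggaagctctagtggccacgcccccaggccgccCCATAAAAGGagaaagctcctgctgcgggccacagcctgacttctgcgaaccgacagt
Btg2: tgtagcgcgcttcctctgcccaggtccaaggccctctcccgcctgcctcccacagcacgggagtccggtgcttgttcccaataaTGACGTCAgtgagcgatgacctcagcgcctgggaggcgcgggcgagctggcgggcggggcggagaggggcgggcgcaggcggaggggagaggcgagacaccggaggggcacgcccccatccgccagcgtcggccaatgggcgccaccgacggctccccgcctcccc
Ier5: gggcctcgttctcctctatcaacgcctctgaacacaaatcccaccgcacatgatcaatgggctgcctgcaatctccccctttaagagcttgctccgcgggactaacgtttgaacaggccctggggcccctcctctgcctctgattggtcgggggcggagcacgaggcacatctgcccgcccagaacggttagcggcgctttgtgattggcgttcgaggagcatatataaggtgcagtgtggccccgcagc
Klf6: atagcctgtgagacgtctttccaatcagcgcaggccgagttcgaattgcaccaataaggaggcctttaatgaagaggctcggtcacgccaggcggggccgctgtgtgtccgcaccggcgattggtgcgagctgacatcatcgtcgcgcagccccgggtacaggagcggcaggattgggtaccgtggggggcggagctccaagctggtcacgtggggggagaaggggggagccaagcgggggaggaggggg

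The table held promoters for 8 of the 10 genes, with Ier2 and Klf10 the missing entries. Both strands were searched for the CArG box, for TGACGTCA and for its core TGACG, which the complete element contains on each strand. The CArG box of Zfp36 begins 58 bases before the start, and 1.47% of the 32851 promoters of the table hold such a box in this window. The complete element of Btg2 begins 166 bases before the start, against 1.55% of all promoters with one. The core was found in 4 of the 8 genes, Btg1, Btg2, Klf2 and Klf4, against 17.8% of all promoters. Ier3, Ier5 and Klf6 had none of these letters in the window.

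The array medians lay between 5.86 and 5.91, and correlations between arrays between 0.992 and 0.997. All 17 probe sets passed the filter, a mean log2 value above 4 over the 6 arrays, as did 15298 probe sets in all. Markers of other cells differed between arrays. Choroid plexus markers averaged 7.99, 7.74 and 7.23 contralaterally and 9.01, 4.78 and 5.01 ipsilaterally in the order of the replicates, and 9 of 9 tested markers had the lower mean ipsilaterally. Microglial markers were higher there for 9 of 10 genes, at 6.95 to 7.15 contralaterally and 7.16 to 7.25 ipsilaterally. Endothelial markers were lower for 10 of 13 genes, at 6.99 to 7.06 and 6.84 to 7.06, and neuronal markers for 5 of 11, at 10.78 to 10.97 and 10.78 to 11.07. Oligodendrocyte markers were higher ipsilaterally for 7 of 7 genes (median 0.13) and astrocyte markers for 8 of 9 (median 0.06). Of 10 cerebellar granule and Purkinje cell markers 4 were lower and 6 higher, with a median of 0.04. Every replicate gave a negative difference for Calb1 (mean -0.48, no overlap), Car8 (-0.31) and Slc1a6 (-0.25), and a positive one for Pvalb (0.03). The part of these lists in the results below was not tested, beyond the fits with the choroid plexus level. Of the regional identity genes of the nucleus 3 of 6 on the array could be tested, since Atoh1 (2.66), Ptf1a (2.89) and Hoxb3 (3.96) were too dim. In a bulk sample fewer cells of a type and less RNA per cell cannot be told apart.

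The comparison asked whether mRNA levels of these genes differ between the side of the silenced nerve and the other side. Arrays measure mRNA levels, and transcription itself was not measured. No probe set of the 10 genes passed the test over all probe sets (limma, adjusted p = 1.00 for each of the 17), as 0% of all tested probe sets did with or without the replicate number as a block. At an unadjusted limma p under 0.05 the infused side was lower for 2 of the 17, against 1.22% of all probe sets tested. These were the probe set of Ier2 and the dimmest of 3 for Klf6. The infused side was higher for 1 of the 17, a dim probe set of Ier5, against 1.16%. The same 3 probe sets were the ones in which the sides did not overlap, against 3.44% of all probe sets with the infused side lower throughout and 2.82% with it higher. For values that do not overlap, an exact permutation test of 3 arrays against 3 that ignores the replicate number gives the smallest two-sided p it can, 0.1. Zfp36 and Klf2 were also lower in 3 of 3 replicates. Counting Ier2 and the Klf6 probe set, that pattern was seen in 4 of 17 probe sets, against 13% of all. The opposite pattern was seen in 2 of 17, both of Ier5, against 10.7%. With each gene taken at its probe set of highest mean, 7 of 10 were lower ipsilaterally, and their log2 differences had a median of -0.14. It was -0.08 without contralateral array 1 or 3, -0.06 without ipsilateral array 1 and -0.03 without both arrays of replicate 1. Among the 8754 genes tested 50.9% were lower, and the median was -0.0029.

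**Figure D1:**
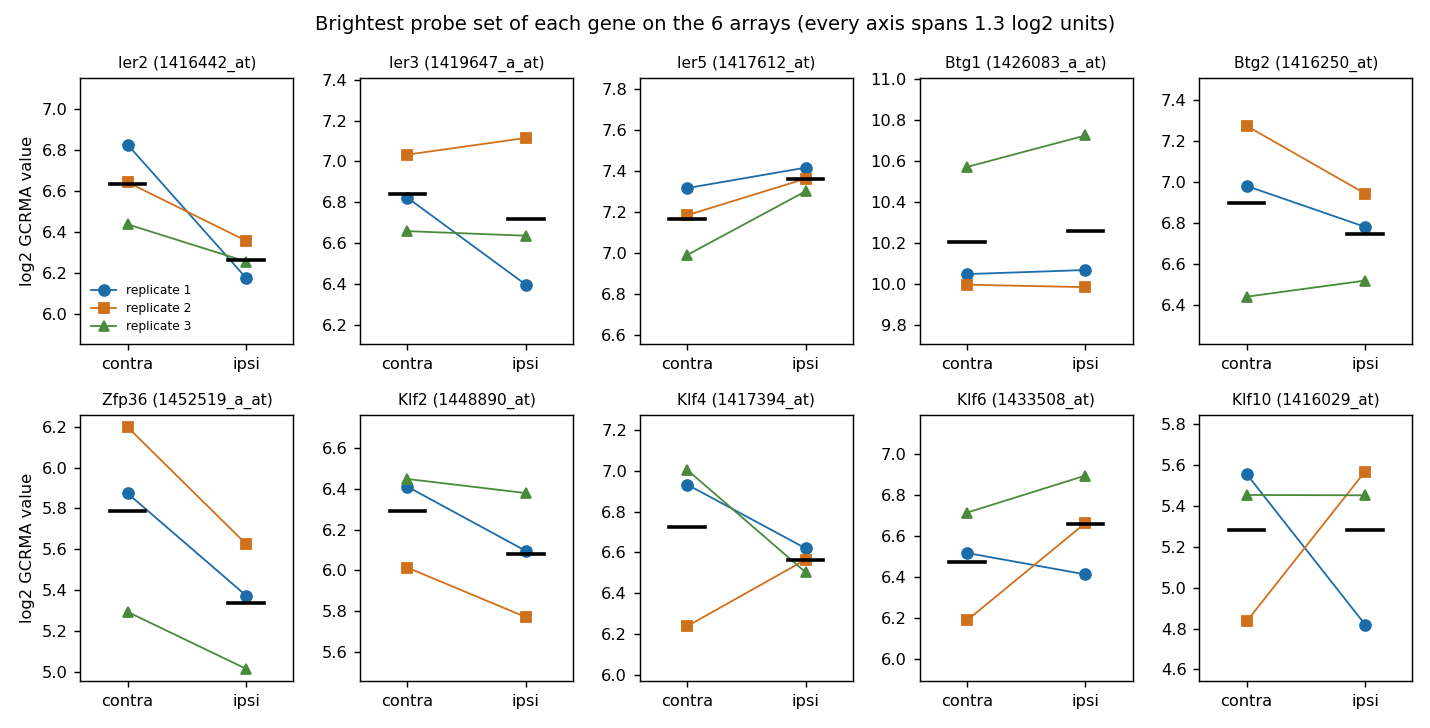
Log2 GCRMA values (y axis) of the brightest probe set of each of the 10 genes on the contralateral and ipsilateral arrays (x axis). Points of 1 colour and shape joined by a line are the arrays of 1 replicate number, black bars are means of 3 arrays, and every panel spans the same range. The lines of Ier2, Zfp36 and Klf2 all slope down, those of Ier5 all slope up, and those of Klf10 cross.

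Ier2 (GRCm38.p6 chr8:84661331-84662852), a nuclear immediate early protein gene, had the smallest p of the 10 brightest probe sets in the fit without the replicate block. With the block its unadjusted limma p was 0.0311 and the adjusted p 0.991, and Zfp36 had a smaller unadjusted p, 0.00693. Ier2 measured 6.83, 6.64 and 6.44 on contralateral arrays 1 to 3, against 6.18, 6.36 and 6.26 on ipsilateral arrays 1 to 3. Every infused side array lay below every array of the other side. The means were 6.64 ± 0.19 and 6.26 ± 0.09 (SD, n = 3 each), a difference of -0.37 (SE 0.12, 95% interval -0.67 to -0.08), or a 1.30-fold lower signal, with an unadjusted limma p of 0.0201 and an adjusted p of 1.00. Replicate 1 carried the widest gap, at -0.65, against -0.29 and -0.18 in replicates 2 and 3. Without contralateral array 1 or ipsilateral array 1 the difference was -0.28 and -0.33, and without both arrays of replicate 1 it was -0.23. The unadjusted limma p was then above 0.05 in each case, as it was without both arrays of replicate 2 (-0.42). Fitted together with the choroid plexus level, Ier2 differed by -0.40, and the part of the microglial shift was not tested.

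Ier3 (chr17:35821713-35822911), the survival regulator of the family, did not separate the sides. Its probe set read 6.82, 7.03 and 6.66 contralaterally and 6.40, 7.12 and 6.64 ipsilaterally. Array 1 of the infused side was the lowest of the 6 and array 2 the highest, so the ranges overlapped fully. The difference of -0.12 had a 95% interval from -0.59 to 0.35 (limma).

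Ier5 (chr1:155096367-155099636) was the 1 gene of the set whose infused side was higher in 3 of 3 replicates, in 2 of its 3 probe sets. The brightest, 1417612_at, measured 7.32, 7.18 and 6.99 contralaterally and 7.42, 7.36 and 7.30 ipsilaterally. The sides overlapped only through contralateral array 1, which stood slightly above ipsilateral array 3. The difference was 0.20 (SE 0.11, 95% interval -0.07 to 0.46, limma), or 0.11 without contralateral array 3. The dim probe set 1460009_at measured 4.18, 4.0 and 3.93 contralaterally and 4.60, 4.89 and 4.82 ipsilaterally, with no overlap. Its means of 4.04 ± 0.13 and 4.77 ± 0.15 (SD, n = 3 each) differed by 0.74 (SE 0.12, 95% interval 0.45 to 1.02), a 1.66-fold higher signal, and it held rank 4 of the 15298 probe sets by limma p (unadjusted 0.000470, adjusted 1.00). Contralaterally it sat near the filter value of 4, the level below which probe sets were left out as too dim. The remaining probe set, 1417613_at, was also dim and had the opposite sign, -0.23 (95% interval -0.81 to 0.35), with ipsilateral array 2 at 3.92 the lowest. The mean of all 3 probe sets differed by 0.23, with an unadjusted limma p of 0.0422.

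**Figure D2:**
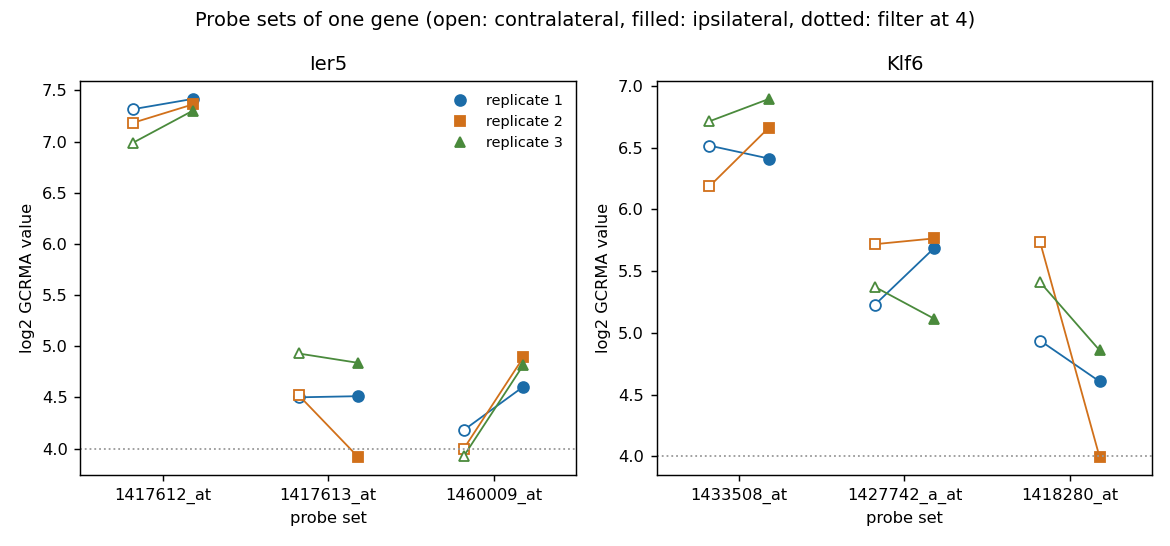
Log2 GCRMA values (y axis) of the 3 probe sets each of Ier5 and Klf6 (x axis), with contralateral arrays as open symbols, ipsilateral arrays as filled symbols and lines joining the arrays of 1 replicate. The dotted line is the filter at 4. Probe sets 1460009_at of Ier5 and 1418280_at of Klf6 separate the sides, and the other 4 do not.

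Among the genes of mRNA turnover, Zfp36 (chr7:28376784-28379228), the tristetraprolin gene, had the widest gap. Its single probe set measured 5.87, 6.20 and 5.29 contralaterally and 5.37, 5.63 and 5.02 ipsilaterally. Each infused side array was lower than its partner, by 0.50, 0.57 and 0.28. The sides still overlapped, because contralateral array 3 lay below ipsilateral arrays 1 and 2. The means of 5.79 ± 0.46 and 5.34 ± 0.31 (SD, n = 3 each) differed by -0.45 (SE 0.26, 95% interval -1.06 to 0.16), a 1.37-fold lower signal with an unadjusted limma p of 0.123. With the replicate number as a block the unadjusted limma p was 0.00693 and the adjusted p 0.991. In that fit 3 member probe sets were lower at an unadjusted limma p under 0.05, against 1.97% of all, and 1 was higher, against 1.75%. Without the block, the difference was -0.25 without contralateral array 2 and -0.29 without ipsilateral array 3. It was -0.70 without contralateral array 3 and -0.54 without both arrays of replicate 3, and only in these did the unadjusted limma p of the leave-out fits go below 0.05. Fitted together with the choroid plexus level, Zfp36 differed by -0.41. The Zfp36 promoter is the one of the 8 with a CArG box.

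Btg2 (chr1:134074865-134079155), which carries the complete cyclic AMP response element, measured 6.98, 7.27 and 6.44 contralaterally and 6.78, 6.94 and 6.52 ipsilaterally at its brighter probe set. The infused side was lower in replicates 1 and 2 and higher in replicate 3, and the difference was -0.15 (95% interval -0.68 to 0.38, limma). Its dimmer probe set had the opposite sign, 0.10. As for Zfp36, both arrays of replicate 3 gave the lowest values of their side. Over the 6 arrays Btg2 and Zfp36 correlated at 0.934, the highest of the 45 pairs of members, whose correlations ranged from -0.861 to 0.934 with a median of -0.075. Arrays that share a replicate number may hold the same mice, so the 6 are not independent and these values are descriptions.

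Btg1 (chr10:96617001-96622813) ran the other way between replicates. Its brighter probe set measured 10.05, 10.00 and 10.57 contralaterally and 10.07, 9.98 and 10.73 ipsilaterally. Replicate 3 was high on both sides, and the sides overlapped. The difference was 0.05 (95% interval -0.52 to 0.63, limma), and that of the other probe set 0.23 (-0.37 to 0.82). Btg1 and Btg2 correlated at -0.861 over the 6 arrays.

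**Figure D3:**
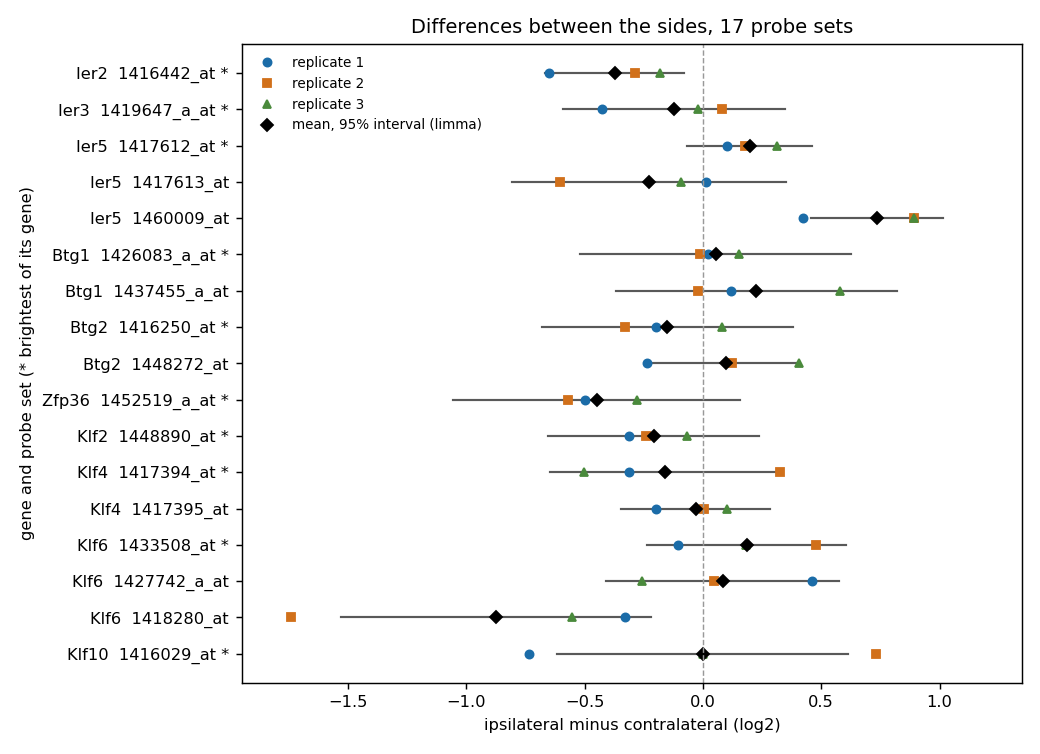
Ipsilateral minus contralateral log2 differences (x axis) of the 17 probe sets (y axis). Diamonds are means with 95% intervals from limma, coloured symbols are the 3 replicates, and an asterisk marks the brightest probe set of a gene. The intervals of Ier2, 1460009_at of Ier5 and 1418280_at of Klf6 leave out 0, and the other 14 include it.

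Among the Krüppel-like factors, Klf6 (chr13:5861489-5870393) separated the sides at 1 of its 3 probe sets. Probe set 1418280_at, the dimmest of the 3, measured 4.94, 5.74 and 5.41 contralaterally and 4.61, 3.99 and 4.86 ipsilaterally. All infused side arrays lay below all others, and ipsilateral array 2 was the lowest by far. The means of 5.36 ± 0.40 and 4.49 ± 0.44 (SD, n = 3 each) differed by -0.88 (SE 0.28, 95% interval -1.53 to -0.22), a 1.83-fold lower signal, with an unadjusted limma p of 0.0160 and an adjusted p of 1.00. Replicate 2 alone differed by -1.74, against -0.33 and -0.55. Without both arrays of replicate 2 the difference was -0.44, and without contralateral array 2 it was -0.69, each with an unadjusted limma p above 0.05. Fitted together with the choroid plexus level it was -0.82. Without ipsilateral arrays 2 and 3, both low in choroid plexus markers, this Klf6 probe set differed by -0.76, Ier2 by -0.46 and probe set 1460009_at of Ier5 by 0.57. That leaves a single ipsilateral array, so these are values with no spread of their own on the infused side, and no test is read from them.

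The brightest Klf6 probe set, 1433508_at, did not share that difference. It measured 6.52, 6.19 and 6.71 contralaterally and 6.41, 6.66 and 6.90 ipsilaterally, which is higher on the infused side in replicates 2 and 3. The difference of 0.18 had a 95% interval from -0.24 to 0.61. It was 0.04 without contralateral array 2 and 0.06 without ipsilateral array 3, and was 0.30 and 0.31 without contralateral array 3 and ipsilateral array 1. The third probe set, 1427742_a_at, gave 0.08 (-0.41 to 0.58, limma). The mean of all 3 differed by -0.20, with an unadjusted limma p of 0.106. The disagreement between the Klf6 probe sets was not itself tested.

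Klf2 (chr8:72319062-72321654) was lower on the infused side in each replicate by small amounts. It measured 6.41, 6.01 and 6.45 contralaterally and 6.10, 5.77 and 6.38 ipsilaterally. The sides overlapped, with replicate 2 the lowest on both. The difference was -0.21 (SE 0.19, 95% interval -0.66 to 0.24), with an unadjusted limma p of 0.306, or 0.0762 with the replicate block. It was -0.05 without ipsilateral array 2, -0.13 without contralateral array 3, -0.36 without ipsilateral array 3 and -0.35 without contralateral array 2. Endothelial markers, lower for 10 of 13 genes, had a median difference of -0.09, and their part in the Klf2 value was not tested. Of the endothelial genes that KLF2 and KLF4 control, 3 of 5 tested were lower, and the median of -0.05 turned to 0.06 without ipsilateral array 3, to 0.0073 without ipsilateral array 2 and to 0.04 with the choroid plexus covariate. None of the 5 had an unadjusted limma p under 0.05, and with the replicate block only Icam1 did, at 0.0376. They included the nitric oxide synthase gene Nos3 (0.18), the thrombomodulin gene Thbd (-0.08) and the adhesion molecule gene Icam1 (0.27). Icam1 was dim, with means of 4.03 contralaterally and 4.29 ipsilaterally. The list was not split by the direction of control, so its count and median are not read as KLF2 or KLF4 activity.

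Klf4 (chr4:55527137-55532475), known from endothelium and from pluripotent cells, measured 6.93, 6.24 and 7.00 contralaterally and 6.62, 6.56 and 6.50 ipsilaterally at its brighter probe set. Contralateral array 2 was the lowest of the 6, below all ipsilateral arrays, and the other contralateral arrays were the highest. The difference was -0.16 (95% interval -0.65 to 0.32) with all arrays and -0.41 without contralateral array 2, where its unadjusted limma p was 0.00737, and -0.41 without both arrays of replicate 2, where it was 0.0230. The dimmer probe set gave -0.03 (-0.34 to 0.28, limma).

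Klf10 (chr15:38291464-38300711), a factor induced by TGF-beta, showed no common direction. It measured 5.56, 4.84 and 5.45 contralaterally and 4.82, 5.57 and 5.45 ipsilaterally. The replicates gave -0.74, 0.73 and -0.0017, which cancel to a mean of -0.0016 (95% interval -0.62 to 0.61, limma).

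Other genes of the same pathways were set beside the members, each at its probe set of highest mean. Of the other immediate early genes 15 of 19 tested were lower ipsilaterally, and the median was -0.19. The median rested in part on single arrays, at -0.02 without ipsilateral array 3, -0.11 without contralateral array 1 and -0.30 without ipsilateral array 2. At an unadjusted limma p under 0.05, 4 were lower, against 1.33% of all genes, and 1 was higher, against 1.11%. The higher one was Jun (0.47), whose infused side was higher in 3 of 3 replicates with no overlap. With the replicate block 6 were lower, against 2.14%, through Junb and Egr1, and 1 was higher, against 1.77%. Junb was dim, with means of 4.75 contralaterally and 3.92 ipsilaterally, so it passed the filter of 4 through its contralateral values. No gene of the list passed the adjusted threshold in either fit. The 3 of smallest p were the AP-1 factor gene Fos (-1.85), the MAP kinase phosphatase gene Dusp1 (-0.70) and the nuclear receptor gene Nr4a1 (-0.89). Fos measured 9.67, 9.81 and 8.82 contralaterally and 7.51, 7.47 and 7.79 ipsilaterally. Its sides did not overlap, and contralateral array 3 was the lowest of its side. At the brightest probe sets of the members this array was also the lowest contralaterally for Ier2, Ier3, Ier5, Zfp36 and Btg2. It was the highest contralaterally for Btg1, Klf2, Klf4 and Klf6. The other immediate early genes Egr2, Egr3, Egr4, Fosb, Fosl1, Nr4a3, Atf3 and Dusp2 were too dim to test.

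Genes of the deadenylation machinery that BTG and ZFP36 proteins engage had 10 of 12 members higher ipsilaterally and a median of 0.09, and none had an unadjusted limma p under 0.05 with or without the block. The 3 of smallest p were the catalytic subunit gene Cnot6l (0.17), the ubiquitin ligase gene Cnot4 (0.11) and the CCR4-NOT subunit gene Cnot2 (0.12). Paralogs of the members gave small differences. Of the other BTG, TOB, ZFP36 and IER family genes 2 of 5 were lower, with a median of 0.04 that was -0.02 without contralateral array 2 and 0.06 without array 1 of either side, led by Zfp36l2 (-0.19), Tob2 (0.17) and Ier5l (0.27). Of the other Krüppel-like factors 5 of 7 were lower, with a median of -0.03. That median was -0.12 without contralateral array 3 and 0.10 without contralateral array 1. The 3 of smallest p were Klf3 (0.24), Klf9 (0.10) and Klf15 (-0.10). In neither family list did a gene reach an unadjusted limma p under 0.05 without the block, and with it only Ier5l did, at 0.0207.

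The mRNAs of the upstream SRF and CREB pathway were also without a common direction, and the activity of its proteins was not measured. Of its 13 tested genes 6 were lower, and the median was 0.07, or -0.03 without contralateral array 2. None had an unadjusted limma p under 0.05, and with the replicate block only Creb1 did, at 0.0278. Those of smallest p were Creb1 (-0.50), the SRF partner gene Elk1 (0.63) and the kinase gene Rps6ka3 (0.16). Creb1 was dim, with means of 4.49 contralaterally and 3.99 ipsilaterally, so it passed the filter of 4 through its contralateral values. Of 11 mRNAs known as ZFP36 targets 2 were bright enough to test, Plk3 (-0.22) and Vegfa (0.13), while Tnf, Il6, Ptgs2 and the 6 others were below the filter.

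**Figure D4:**
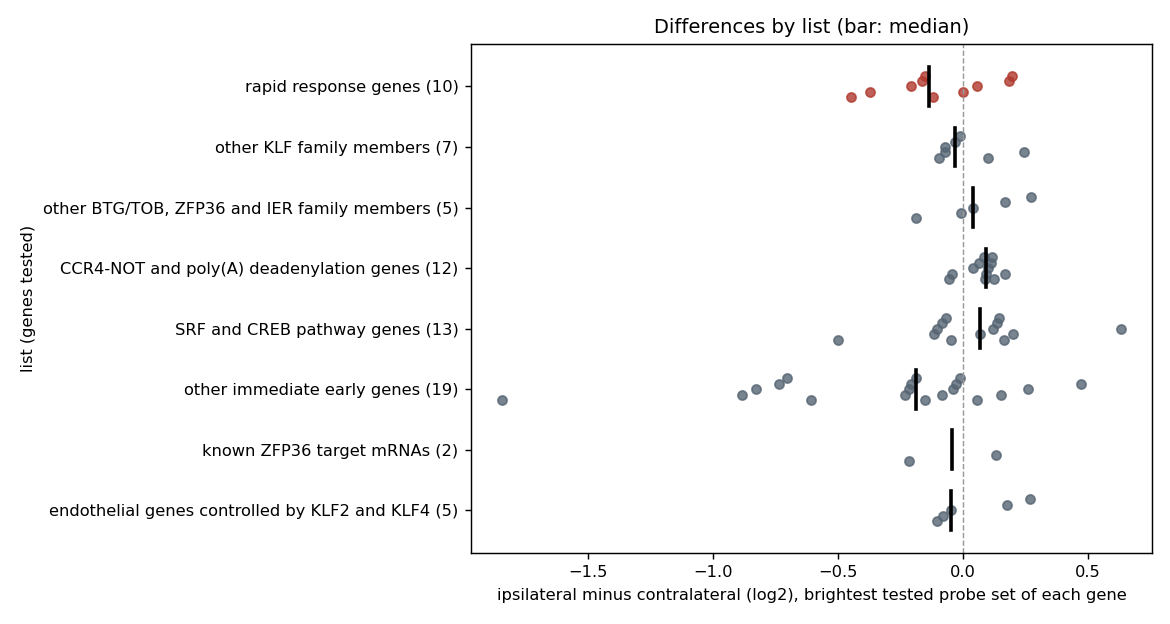
Ipsilateral minus contralateral log2 differences (x axis) of the 10 rapid response genes and of 7 lists of related genes (y axis, with the number of genes tested), each point 1 gene at its brightest tested probe set and each bar the median of a list. The median lies at -0.14 for the rapid response genes and at -0.19 for the other immediate early genes, where Fos is the lowest point.

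The genes whose 6 array values were most like those of a member were sought by Pearson correlation among other genes (2710, or 2711 for Ier5) with an SD of 0.2 or more. For Ier2 they were Racgap1 (0.977) and Rem2 (0.973), for Zfp36 Tsr3 (0.979) and Kcnj9 (0.978), and for Klf6 at its brightest probe set Pclo (0.984) and Satb1 (0.984). For Ier5 they were Pspc1 (0.954) and Wfdc18 (0.953), for Btg2 Sap30l (0.983) and Tcf15 (0.976), and for Klf2 Rnd3 (0.983) and Dido1 (0.977). These values come from the same 6 arrays and are descriptions, with no test.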

How the data were processed

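The authors deposited 1 log2 value per probe set for each of 6 Affymetrix arrays, made with GCRMA. GCRMA, named in the submitters' processing notes with no version, corrects background by probe sequence, normalizes between arrays and summarises each probe set. That the scale is log2 was inferred from the range of the values. GCRMA shrinks dim probe sets toward a floor, and arrays give no read depth, so their number limits precision. Groups and replicate numbers came from the descriptions. Genes were named from the array platform's annotation, where 20393 probe sets had 1 symbol, 691 several and 1606 none, and gene positions and promoters from RefSeq (GRCm38.p6). The files do not pair probe sets with sequences.

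The 64 control probe sets and 7328 with a mean at or below 4 were left out. Ipsilateral minus contralateral was fitted to all 15298 others with limma 3.58.1 in R 4.3.3 (lmFit, eBayes), and p-values were adjusted by Benjamini-Hochberg over all of them. Members, lists and alternatives were chosen with earlier results of these data known. All members were named with every probe set. The text gives full values per array for the brightest probe set and for those with an unadjusted p under 0.05 or the same sign in 3 of 3 replicates, and up to 3 genes of smallest p of each list. P-values measure the spread between these pools of mice.

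The series text gives tissue pooled from 10 to 12 mice per replicate after infusion of 1 ear. Arrays of the same number may therefore hold both sides of the same mice. The labels do not say this outright, and the correlations bear on it weakly. The main fit left the replicate number out, and only the alternative with the replicate block used it. Over all tested probe sets, deviations from the mean of the side had correlations of 0.0911, 0.044 and 0.568 within such pairs and of -0.37 to 0.3 between other arrays of opposite sides. The fit was tested on simulated data of the 15298 probe sets, with 200 changed in each run. It recovered 14.9% of planted log2 differences of 0.5, 71.0% of 1 and 94.8% of 2, with 4.3% false calls. The simulated noise was normal and independent between arrays and probe sets, without shared replicate or choroid plexus shifts. These shares are therefore not the power of the real comparison, where Fos, at -1.85, did not pass the adjusted threshold.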

Additional observations from a re-analysis of the deposited data

How the results depend on the processing

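Over the 20 alternative settings, no probe set of the 10 genes was past an adjusted limma p of 0.05. Among all probe sets 0 were past it, and 0 to 5 when arrays were left out, the 5 without ipsilateral array 1. All probe sets at an unadjusted limma p under 0.05 numbered 364, against 233 with a mean above 6, 236 without probe set types that can cross-hybridize, 569 with the replicate block and 572 without ipsilateral arrays 2 and 3. Member probe sets lower at that p numbered 2, against 1 with a mean above 6, 0 without ipsilateral arrays 2 and 3 (1 array on that side), and 1 to 3 when other arrays were left out. Those higher numbered 1, against 0 with a mean above 6, since the Ier5 probe set is dim. The Klf6 probe set 1418280_at, also below a mean of 6, left the lower count at that filter. The Ier5 probe set 1460009_at kept its direction and an unadjusted p under 0.05 in the 17 alternatives that tested it with more than 1 array a side. The median of the 10 genes lay between -0.21 and -0.03 over the alternatives. Small differences changed sign. With the choroid plexus covariate Btg1 was at -0.057 and Klf4 1417395_at at 0.024. The fit without ipsilateral arrays 2 and 3 leaves 1 array on that side and the spread to the other side. In that fit Btg1 was at -0.14, Btg2 1448272_at at -0.059, Klf4 1417395_at at 0.044 and Klf6 at -0.061. Ier3 and Klf10 kept their sign there but were larger, at -0.44 and -0.46. Klf10 was at 0.0058 after median centring and at 0.023 after quantile normalization, and Klf6 at -0.20 as the mean of its probe sets. Leaving out 1 array, or both arrays of a replicate, moved Btg1 from -0.18 to 0.24, Btg1 1437455_a_at from -0.050 to 0.44, Btg2 from -0.38 to 0.038, Btg2 1448272_at from -0.059 to 0.26, Ier3 from -0.32 to 0.038, Ier5 1417613_at from -0.44 to 0.024, Klf10 from -0.37 to 0.37, Klf4 from -0.41 to 0.0067, Klf4 1417395_at from -0.13 to 0.090 and Klf6 1427742_a_at from -0.11 to 0.29. The cause of these changes was not tested. The replicate block brought no member past the adjusted threshold, and at an unadjusted p it added Zfp36. With 3 arrays a side, an exact permutation test of 1 value that ignores the replicate number cannot go below a two-sided p of 0.1.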
